A study of Mus musculus with 4 samples.

Results

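The genes Arc, Npas4, Dusp1, Dusp6, Btg2, Ier2, Homer1 and Bdnf were examined, 8 of the 19465 probe-targeted features of a spatial map of the mouse brain. They are activity-induced genes outside the Egr, Fos, Jun and Nr4a families, and they were found by symbol. The 8 genes were selected on a list proposed with the HF against MF values of these 4 sections already known, so those values are given as a description and not as a test. The rule names no area of the section.

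The map came from wild-type C57BL/6J pups at postnatal day 21 (P21), all male. Their mothers, 8 weeks old per the labels and 8 to 12 per the methods, received an L-amino acid defined diet with 2 mg/kg folic acid (FA) in the MF group or 20 mg/kg FA in the HF group, from 2 weeks before mating through pregnancy and lactation. The pups were killed by inhaled CO2 per the methods, before the brain was taken out. Coronal sections, 5 µm thick, of their fixed, paraffin-embedded brains were read by Visium-FFPE, in which paired probes on the RNA of a section are counted in barcoded spots. Each group had 2 sections, described as biological replicates, and the litters they came from are not given in the sources used here. A spot covers several neighbouring cells, so fewer cells of a type and less RNA per cell cannot be told apart in these values.

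When neurons fire, calcium entry and the ERK and CREB pathways switch on immediate early genes within minutes, without new protein synthesis. Some encode transcription factors, such as Npas4, and others act directly on synapses or on signalling. Arc protein promotes the removal of AMPA receptors from synapses, Homer1 encodes scaffold proteins that tie group 1 metabotropic glutamate receptors to their partners, and Bdnf encodes a secreted neurotrophin that binds TrkB. Dusp1 and Dusp6 encode phosphatases that switch MAP kinases off, Dusp6 with a preference for ERK. Btg2 encodes an antiproliferative co-regulator that recruits deadenylases, and Ier2 encodes a nuclear immediate early protein. The rows hold 1 count per gene, so no value is given for single transcript forms such as those from the several promoters of Bdnf.

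The cAMP response element, the site bound by CREB, is one of the elements known in the promoters of such genes. RefSeq windows of the 250 bases upstream of the start (GRCm38.p6) were at hand for 6 of the 8 genes, and those holding at least 2 matches to the core of that element are printed because they show it in members from different roles. The core searched was TGACG on either strand, and the full palindrome TGACGTCA holds 1 core match on each strand, so the 2 overlap. Capitals mark every match, and the sequences run 5′ to 3′ on the gene's strand up to the base before the start.
Npas4, chr19:4989972-4990221, minus strand: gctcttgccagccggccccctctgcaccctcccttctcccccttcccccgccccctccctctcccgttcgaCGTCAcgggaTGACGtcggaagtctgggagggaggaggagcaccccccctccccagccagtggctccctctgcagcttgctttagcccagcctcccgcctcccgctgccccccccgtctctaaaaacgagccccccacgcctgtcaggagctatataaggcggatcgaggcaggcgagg
Dusp1, chr17:26508473-26508722, minus strand: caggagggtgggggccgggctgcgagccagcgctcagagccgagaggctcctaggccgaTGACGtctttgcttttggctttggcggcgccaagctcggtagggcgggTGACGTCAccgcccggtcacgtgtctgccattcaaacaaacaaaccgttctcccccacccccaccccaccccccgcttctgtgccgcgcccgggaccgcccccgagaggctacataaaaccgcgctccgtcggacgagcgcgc
Btg2, chr1:134079156-134079405, minus strand: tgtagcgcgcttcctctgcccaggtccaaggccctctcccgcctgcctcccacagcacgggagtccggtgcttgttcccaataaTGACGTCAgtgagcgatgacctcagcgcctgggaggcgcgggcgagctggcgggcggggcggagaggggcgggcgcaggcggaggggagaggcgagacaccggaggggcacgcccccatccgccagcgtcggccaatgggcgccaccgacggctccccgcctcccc
Homer1, chr13:93303507-93303756, plus strand: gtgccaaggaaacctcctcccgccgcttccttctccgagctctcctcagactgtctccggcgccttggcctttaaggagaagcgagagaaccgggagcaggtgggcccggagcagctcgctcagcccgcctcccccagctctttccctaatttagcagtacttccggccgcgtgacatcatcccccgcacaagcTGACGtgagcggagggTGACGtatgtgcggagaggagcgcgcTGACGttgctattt
Of 32851 such windows in the table, 17.8% held the core at least once and 3.90% at least 2 times, and 1.55% held the full palindrome. The full palindrome stood in the windows of Dusp1 and Btg2, with its leading base 143 and 166 bases before the start, and Dusp1 had a further core match 191 bases before it. Npas4 had core matches 179 and 169 bases before the start. In 1 of the 2 windows of Homer1 they lay 56, 40 and 14 bases before it. Of the 7 windows of Bdnf, 1 held a core match, 35 bases before the start, and the window of Dusp6 held none. No window of the 6 genes held a CArG box, the element bound by SRF, which was in 1.47% of all windows. A match is a run of letters and not a measured binding site.

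The 4 sections held 34983708 to 90098381 unique molecular identifiers (UMIs), with MF replicate 1 the deepest and HF replicate 1 the shallowest. After filtering, 3197 to 3598 spots per section were kept. Spots were clustered on other genes, with the 8 members and all other activity-induced genes of the lists left out, and clusters took the name of the region whose markers led them. The areas were cortex (CTX, 669 to 873 spots per section), hippocampus (HP, 225 to 309), thalamus (TH), hypothalamus (HY), striatum (STR) and white matter (WM). Prkcd and Tcf7l2 led TH, Dlk1 and Baiap3 HY, Penk and Ppp1r1b STR, Ermn and Adamts4 WM, and Lamp5 and C1ql2 were among the leading genes of CTX and HP clusters. Neuronal Snap25 was at 2492 to 2710 CPM (UMIs per 1000000 UMIs) and the astrocyte gene Gfap at 132 to 200.2 CPM over the whole section. Levels are CPM of the UMIs summed over an area of 1 section, and are compared between areas and not between genes, because the number of probes per gene is not used here. HF replicate 1 stood apart, with the highest whole-section level of all 8 members.

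Levels between areas were tested with edgeR's quasi-likelihood test on the summed counts with section as a block, and a gene was called at an adjusted p under 0.05 and at least 1.2-fold. Since the areas were drawn from the other genes of the same spots, these tests measure differences against the spread over sections and nothing about how areas arose. Over the 15 pairs of 6 regions, 89 of 120 member-by-pair comparisons were called, where 41.3% of all gene-by-pair comparisons were. Over pairs of cortical layers 17 of 48 were called, against 19.4% of all, and over pairs of hippocampal subregions 30 of 42, against 38.5% of all. Leaving out any section gave 77 to 85, 16 to 18 and 29 to 30 calls.

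Arc (ENSMUSG00000022602, chromosome 15 of GRCm38, 74669083 to 74672570) was higher in HP, CTX, STR and WM than in TH and HY. In HP it was at 86.8 and 93.0 CPM in the MF sections and at 175 and 131 CPM in the HF sections. In HY it was at 27.6 and 27.0 CPM in MF and at 44.0 and 44.4 CPM in HF. HP exceeded HY in 4 of 4 sections, by 1.88 on the log2 scale (SE 0.16, adjusted p = 2.90e-12 by edgeR). By mean CPM over the 4 sections the order was HP, CTX, STR, WM, TH, HY. No neighbours passed except WM and TH, which differed by 1.32 (SE 0.16, adjusted p = 1.27e-08). The place of CTX rested on HF replicate 1, where it was at 215 CPM against 126 CPM in WM. In MF replicates 1 and 2 CTX was below WM, at 56.9 and 50.9 against 74.3 and 70.96 CPM. In HF replicate 2 it was also below, at 89.3 against 95.2 CPM. CTX exceeded STR in 2 of 4 sections, with a fitted log2 difference of -0.004 (SE 0.17). Each of HP, CTX, STR and WM differed from each of TH and HY, and no other pair was called. Pairs that were not called are not shown to be level. HP lay above CTX by 0.32 (SE 0.14, adjusted p = 0.064 by edgeR), and leaving out a section gave 8 to 12 called pairs.

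Within HP, Arc was at 167 and 172 CPM in the CA1 area of the MF sections and at 263 and 259 CPM in HF, the highest of the hippocampal areas in all 4 sections. The matrix area, spots outside the cell layers led by Slco1a4, Cxcl14 and in part by myelin genes, followed with 99.3 to 261 CPM. CA2-3 and the dentate gyrus (DG) were lower, and all 6 pairs were called, with CA1 above DG by 1.94 on the log2 scale (SE 0.11, adjusted p = 7.77e-27 by edgeR). Across the cortical layers Arc was highest in L6, a mean of 128 CPM, and lowest in L2-3, with 72.5 CPM. That step was 0.80 on the log2 scale (SE 0.08, adjusted p = 2.61e-14 by edgeR) and held in 4 of 4 sections, while L4 and L5 did not pass (adjusted p = 0.20).

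Homer1 (ENSMUSG00000007617, chromosome 13, 93299635 to 93405129) was highest in CTX, at 272, 277, 343 and 235 CPM in MF replicates 1 and 2 and HF replicates 1 and 2. STR followed at 244, 251, 331 and 266 CPM, and this pair did not pass (adjusted p = 0.118 by edgeR). HY was lowest, with 77.3 to 97.1 CPM, below CTX by 1.93 on the log2 scale (SE 0.05, adjusted p = 8.77e-25 by edgeR). Each pair of neighbours from STR down through HP, WM, TH and HY was separated at an adjusted p under 0.05, although HP and WM differed by less than 1.2-fold. L2-3 held the highest cortical level, at 336, 363, 427 and 299 CPM, and L5 the lowest, at 209 to 285 CPM, a log2 difference of 0.53 (SE 0.05, adjusted p = 8.28e-18). In HP the gene was highest in CA1 and lowest in DG, 1.11 apart on the log2 scale (SE 0.09, adjusted p = 9.02e-20).

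Bdnf (ENSMUSG00000048482, chromosome 2, 109674700 to 109727007) was highest in HP in all 4 sections, at 114 and 110.4 CPM in MF and 151 and 139 CPM in HF. STR was lowest, at 25.2 to 31.6 CPM, and lay below HP by 2.18 on the log2 scale (SE 0.14, adjusted p = 1.79e-14 by edgeR). CTX stood between, below HP by 0.65 (SE 0.09) and above HY by 0.79 (SE 0.09), and both steps were called. HY and TH did not pass against each other (adjusted p = 0.729). Inside HP the order differed from that of Arc and Homer1. CA2-3 held 179, 157, 169 and 217 CPM and DG 131, 148, 224 and 174 CPM, while the matrix held 56.1 to 93.2 CPM. All 6 pairs were called, CA2-3 above matrix by 1.58 (SE 0.11, adjusted p = 6.77e-22). In CTX the highest level was in L2-3 (79.3, 85.0, 118 and 109 CPM) and the lowest in L4 (54.0, 49.7, 80.3 and 60.4 CPM), a log2 difference of 0.65 (SE 0.08, adjusted p = 9.09e-10).

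**Figure D1:**
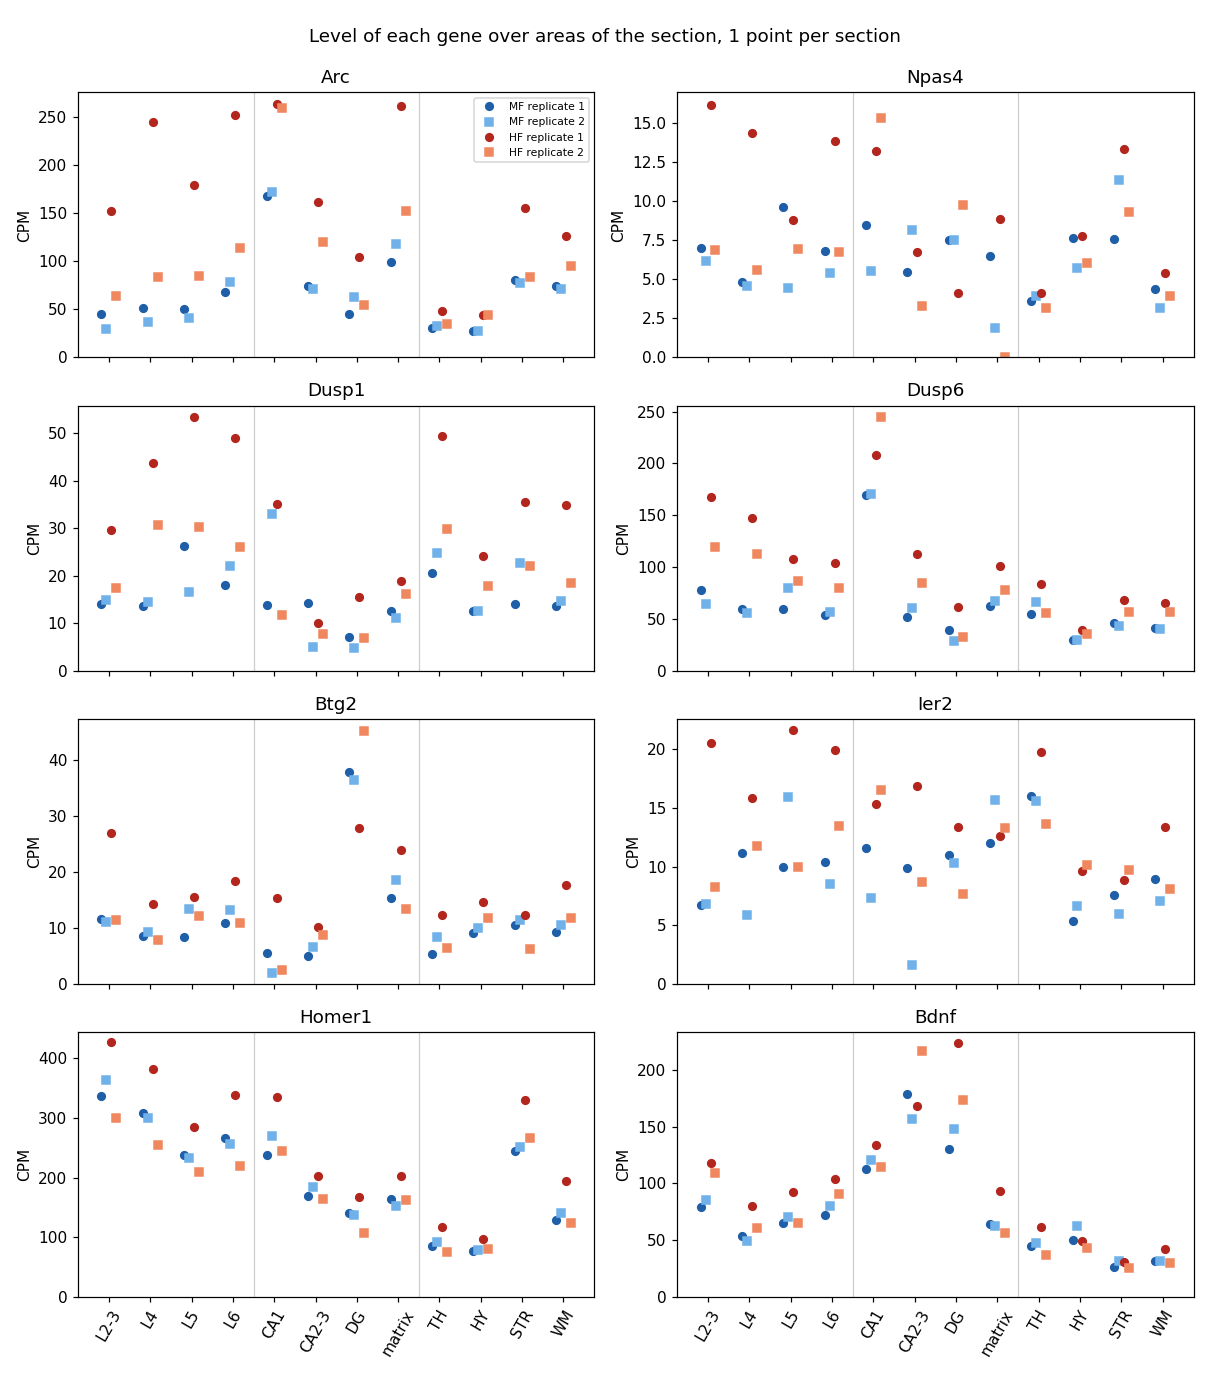
CPM of the 8 genes (vertical axes, each from 0) in 4 cortical layers, 4 hippocampal subregions and 4 other areas (horizontal axis), 1 point per section, blue for MF and red for HF. Arc and Dusp6 peak in CA1 in all 4 sections, Btg2 in DG and Bdnf in CA2-3 or DG, and HF replicate 1 is often the highest point.

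Dusp6 (ENSMUSG00000019960, chromosome 10, 99263231 to 99267489) peaked in CA1, at 169 and 170.4 CPM in MF and 208 and 245 CPM in HF. CA2-3 held 51.5 to 113 CPM and DG 29.0 to 60.9 CPM, so CA1 lay above both in every section. CA1 exceeded DG by 2.48 on the log2 scale (SE 0.12, adjusted p = 7.26e-31 by edgeR), while CA2-3 and matrix did not pass (adjusted p = 0.592). Among regions CTX and HP were highest and did not pass against each other (adjusted p = 0.850), and HY was lowest, with CTX at 2.58 times its mean level (adjusted p = 3.84e-16). The layers ran from L2-3 down to L6, 0.53 apart (SE 0.08, adjusted p = 1.36e-08), and no neighbouring layers were called.

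Dusp1 (ENSMUSG00000024190, chromosome 17, 26505590 to 26562128), the other MAP kinase phosphatase, had another order. It was highest in TH, at 20.6 and 24.7 CPM in MF and 49.4 and 29.8 CPM in HF, and lowest in HP, at 10.2 to 19.5 CPM. TH exceeded HP by 1.16 on the log2 scale (SE 0.11, adjusted p = 8.71e-11 by edgeR) in 4 of 4 sections, and TH and CTX did not pass (adjusted p = 0.105). Within CTX it was higher in L5 than in L2-3, by 0.81 (SE 0.15, adjusted p = 3.15e-06), the reverse of the order of Dusp6. In HP it was higher in CA1 than in DG, by 1.48 (SE 0.31, adjusted p = 5.59e-05), from 5 to 18 UMIs per section and area.

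Btg2 (ENSMUSG00000020423, chromosome 1, 134075170 to 134079120) was the member that peaked in DG. It was at 37.9 and 36.5 CPM there in MF and at 27.9 and 45.2 CPM in HF, from 27 to 76 UMIs per section. CA1 held 1.83 to 15.4 CPM from 1 to 7 UMIs, and DG lay above it by 2.61 on the log2 scale (SE 0.31, adjusted p = 1.89e-11 by edgeR). Among the leading genes of the DG clusters were Prox1 and C1ql2, which mark granule neurons, and Sox11 and Dcx, which mark young neurons. Among regions HP was highest and TH lowest, 1.30 apart (SE 0.14, adjusted p = 1.15e-09). No pair of cortical layers was called.

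Ier2 (ENSMUSG00000053560, chromosome 8, 84661331 to 84662852) was highest in TH, at 16.1, 15.6, 19.8 and 13.6 CPM, and lowest in HY, at 5.38 to 10.1 CPM, a log2 difference of 1.26 (SE 0.14, adjusted p = 1.08e-09 by edgeR). TH exceeded CTX by 0.43 (SE 0.12, adjusted p = 0.00261) in 3 of 4 sections, HF replicate 1 being the exception. No pair of layers or of hippocampal subregions was called for Ier2.

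Npas4 (ENSMUSG00000045903, chromosome 19, 4984355 to 4990316) was sparse, with 219 to 534 UMIs per section. STR, at 7.55, 11.3, 13.3 and 9.27 CPM, was above TH, at 3.16 to 4.11 CPM, by 1.34 on the log2 scale (SE 0.21, adjusted p = 1.86e-06 by edgeR). STR and CTX did not pass (adjusted p = 0.487), nor did any pair of layers. Npas4 fell under the filter on low counts in the hippocampal subregions, where CA1 held 3 to 13 UMIs per section.

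**Figure D2:**
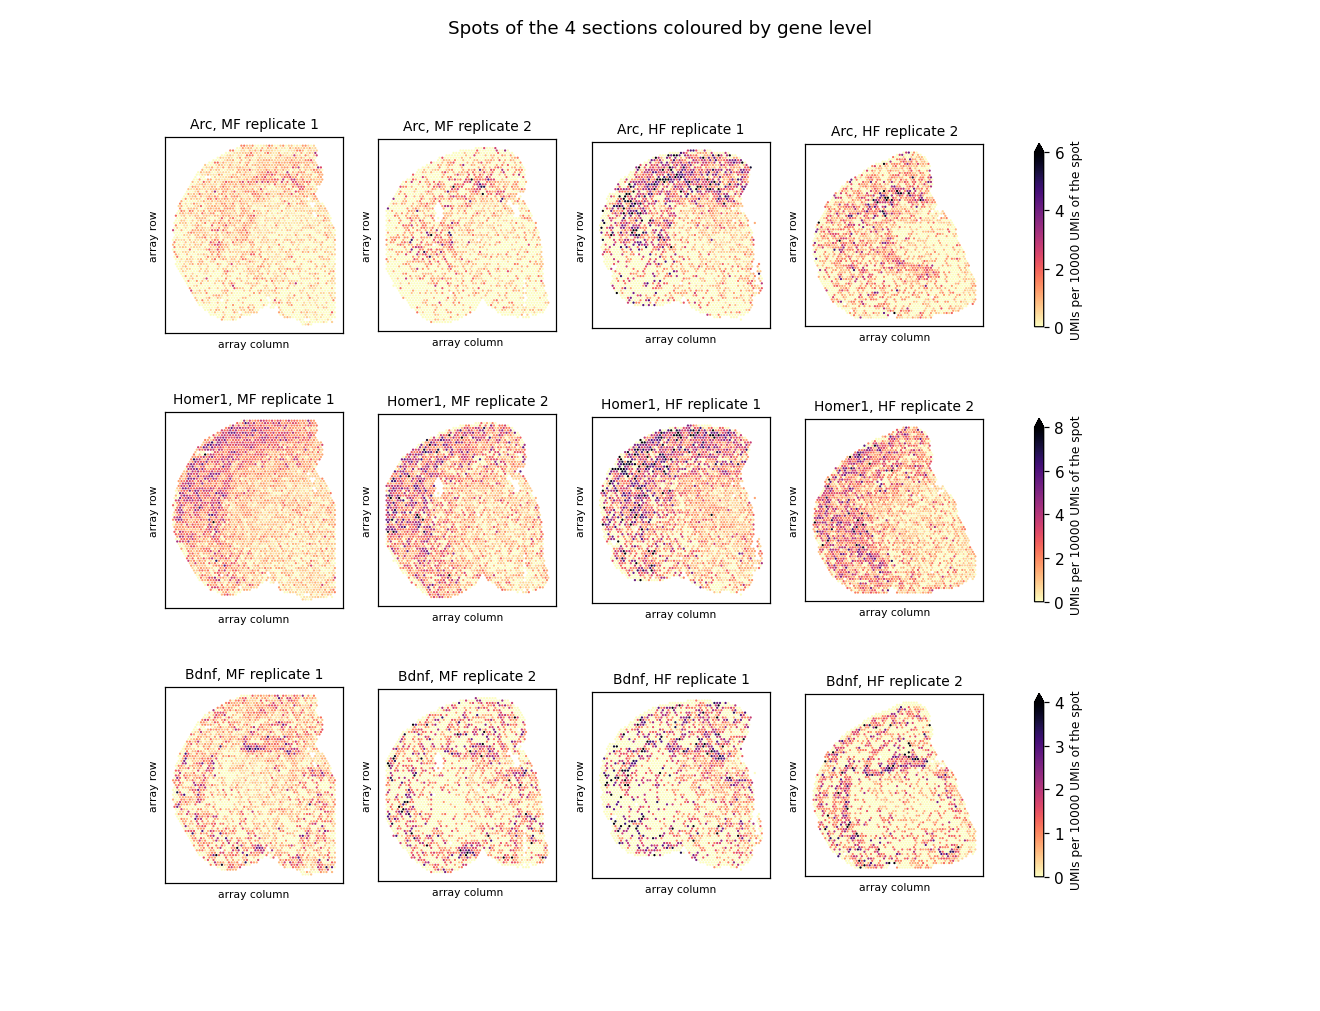
Every kept spot of the 4 sections (array column and row), coloured by the UMIs of Arc, Homer1 and Bdnf per 10000 UMIs of the spot, with values beyond the end of a colour bar shown in its last colour. Arc and Homer1 are dense in the cortical band and Bdnf in the hippocampal cell layers, and HF replicate 1 is the darkest section for Arc.

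The deposited files give the spatial autocorrelation of each feature per section, as computed by Space Ranger. Moran's I, near 0 without spatial order and toward 1 with it, was 0.212 to 0.391 for Homer1, above 96.7% to 98.4% of the features listed in a section. Arc had 0.143 to 0.286 and Bdnf 0.110 to 0.146, above at least 93.9% and 89.9% of features. Dusp6 had 0.0477 to 0.113, above 80.9% to 91.6% of features, and Dusp1 0.0121 to 0.0564, above 51.6% to 82.0%. Npas4 had 0.00784 to 0.0187, above 44.5% to 57.5%, Ier2 0.00889 to 0.0352, above 46.8% to 68.2%, and Btg2 0.00344 to 0.0411, above 26.9% to 71.4%, so these 3 lay near the middle of all features. Sparse counts lower this score, so its order between genes is also an order of depth.

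At single spots most members were sparse. Spots were thinned to 5000 UMIs and those with fewer were dropped, which left 3589 and 3216 spots in MF and 2687 and 3218 in HF. Arc was then seen in 25.8% and 23.4% of CTX spots in MF and in 63.8% and 37.7% in HF. Without thinning the shares were 74.9%, 42.0%, 82.4% and 63.2%. The area led by the choroid plexus genes Folr1 and Ttr, 9 to 15 spots per section, serves as background because choroid plexus holds no neurons, although its spots also cover neighbouring tissue. The thinned share of Arc there was 21.4% and 11.1% in MF and 20.0% and 0% in HF, the last in 14 spots, which allows a share of up to 21.4%. The CTX share was above the share in that area in every section, by least in MF replicate 1, and 9 to 15 spots give the background only roughly. Arc levels in that area were 24.9 and 16.5 CPM in MF and 62.2 and 22.4 CPM in HF, below CTX in all 4 sections. Median depth was 23725 to 48367 UMIs in that area and 9407 to 28163 in CTX. In CA1 the thinned share of Arc was 59.3% to 64.3% and so alike in the 4 sections. Thinned shares of Homer1 in CTX were 66.0% to 79.5%, against 35.7%, 22.2%, 66.7% and 7.14% in the area led by Folr1 and Ttr. Those of Npas4 in CTX, 3.44% to 6.12%, could not be told from the background, which was 0% to 11.1% over as few spots, a 0 in 14 spots allowing up to 21.4%. The spots with the most Arc, the top 10 percent, held 47.3% and 49.5% of its thinned CTX counts in MF and 32.0% and 40.3% in HF. A gene with more counts fills more spots at a fixed depth, so these shares can move with the level itself. The thinned share of Arc in CA1 did not follow its CA1 level, which was higher in both HF sections.

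Levels of each member over 13 areas in 4 sections, centred within section, on the log2(CPM + 1) scale, were set against those of at least 10100 other genes with a mean of at least 10 CPM. Pearson's r over these 52 sums describes how alike 2 patterns are, and sums of 1 section share their library. Closest to Homer1 were Egr1 (r = 0.94), an immediate early transcription factor, and Kcnh3 (0.93). Closest to Bdnf were Gpr22 (0.90) and Camkk1 (0.89), a calcium-dependent kinase. Dusp6 was most like Actr3b (0.88) and Cck (0.88), a neuropeptide gene, and Arc most like Rprml (0.82) and Sh3rf1 (0.81). Btg2 was nearest Med25 (0.81) and Ahcyl2 (0.79), Dusp1 nearest Cntn4 (0.80) and Ckb (0.73), Ier2 nearest Mpc2 (0.68) and Snrnp25 (0.62), and Npas4 nearest Csrnp3 (0.72) and Btrc (0.68). Between members, r was 0.68 for Dusp6 and Homer1, 0.67 for Arc and Dusp6, -0.42 for Dusp1 and Bdnf, and -0.53 for Dusp6 and Btg2. Within CTX and HP, once the means of clusters were removed, members hardly varied together from spot to spot. In CTX the median r over sections of all 28 pairs lay between -0.01 and 0.04. These spots were thinned to 5000 UMIs, where most members had no count in most spots.

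For HF against MF edgeR was fitted without a block to the counts of each section in total or of 1 region at a time. These are the values by which the genes were selected, and the counts are printed with the share of all genes for scale only. The call rule found 0 members over the whole section, where 0% of 14971 tested genes were called, although 1020 genes had an unadjusted p under 0.05 and DESeq2 called 23 genes, 2 of them members. In CTX 2 of 8 members were called (Arc and Dusp6) and 0.167% of all genes, and in HP 1 of 8 (Arc) and 0.224% of all. None was called in TH, HY or STR, where 0%, 0% and 0.0524% of genes were, and DESeq2 called no member there either. Unadjusted p-values were under 0.05 for 2 members in TH, 5 in HY and 3 in STR. Both HF sections lay above both MF sections for 6 members over the whole section, 6 in CTX, 6 in HP, 2 in TH, 6 in HY and 4 in STR. Of all tested genes this held for 21.8%, 16.1%, 17.7%, 20.5%, 22.3% and 17.6%.

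Arc was at 51.2 and 46.8 CPM over the MF sections and at 104 and 76.7 CPM over the HF sections, with no overlap and a log2 fold change of 0.87 (SE 0.14). In CTX it was at 56.9 and 50.9 CPM in MF and at 215 and 89.3 CPM in HF, a log2 fold change of 1.48 (SE 0.26). HF replicate 1 was far above HF replicate 2 there. Without it the value was 0.73, without HF replicate 2 it was 1.99, and the call was lost with DESeq2, with thinned spots and without MF replicate 1. Of the layers L4 showed the widest gap, with 51.4 and 36.6 CPM in MF against 244 and 83.3 CPM in HF. In HP the log2 fold change of Arc was 0.78 (SE 0.12). In CA1 the levels of the groups kept apart (167 and 172 against 263 and 259 CPM), and in DG the groups overlapped. The share of CA1 spots with Arc, thinned to 5000 UMIs, was alike across sections, at 59.3% to 64.3%. That share rests on 27 to 42 spots per section, and why it did not follow the levels was not tested. Arc was also higher in both HF sections in TH, HY, STR and WM. Without HF replicate 1 or without HF replicate 2 the HP value was 0.58 or 0.97.

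Dusp6 was at 50.9 and 52.6 CPM over the MF sections and at 80.2 and 66.4 CPM over the HF sections. Its log2 fold change in CTX was 0.82 (SE 0.11), from 61.1 and 64.3 CPM to 124.9 and 95.0 CPM, and in HP it was 0.52 (SE 0.10). Without MF replicate 1 the CTX call was lost. L2-3 and L4 showed the widest gaps, 78.0 and 64.7 against 167 and 119.6 CPM, and 59.7 and 55.5 against 147 and 113 CPM. In TH the groups overlapped.

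Dusp1 was at 16.6 and 17.4 CPM over the MF sections and at 36.3 and 22.3 CPM over the HF sections, a log2 fold change of 0.77 (SE 0.21). It was 0.92 (SE 0.19) in CTX, 0.83 (SE 0.22) in TH and 0.72 (SE 0.18) in HY, where the groups did not overlap. In HP it was 0.26 (SE 0.26), and the groups overlapped. The TH cluster with Slitrk6 and Lhx9 among its leading genes held 334 spots in HF replicate 1. It held 55 and 88 spots in MF and 62 in HF replicate 2. The part of this mix in the TH value was not tested. Ier2 was at 10.4 and 9.71 CPM in MF and at 15.5 and 10.8 CPM in HF, and Btg2 at 9.78 and 11.3 CPM in MF and at 16.4 and 11.4 CPM in HF. Over the whole section HF replicate 2 was close to the higher MF section for both genes and HF replicate 1 stood above the rest. In HY Ier2 was at 5.38 and 6.62 CPM in MF and at 9.62 and 10.1 CPM in HF, with HF replicate 2 the highest. Btg2 was at 9.14 and 9.92 against 14.7 and 11.8 CPM in HY and at 17.2 and 18.7 against 19.8 and 20.9 CPM in HP, so both HF sections were higher there. Npas4 was at 5.93 and 5.16 CPM in MF and at 7.52 and 5.53 CPM in HF, which overlap.

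Homer1 was at 160.0 and 153 CPM over the MF sections and at 183 and 149 CPM over the HF sections, which overlap, with the lowest log2 fold change of the 8 members there, 0.07 (SE 0.11). Both HF sections lay above both MF sections in STR, with 244 and 251 CPM in MF and 331 and 266 CPM in HF, and in HY, with 77.3 and 78.6 against 97.1 and 81.0 CPM. The log2 fold changes were 0.26 (SE 0.12) in STR and 0.17 (SE 0.11) in HY. In CTX HF replicate 1 had the highest level of the 4 sections and HF replicate 2 the lowest. Without HF replicate 1 the CTX log2 fold change went from 0.08 (SE 0.13) to -0.21.

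Bdnf was at 56.6 and 59.5 CPM over the MF sections and at 71.5 and 60.1 CPM over the HF sections. In CTX it was at 67.1 and 72.9 CPM in MF against 96.8 and 81.8 CPM in HF, and in HP at 114 and 110.4 against 151 and 139 CPM, with log2 fold changes of 0.36 (SE 0.10) and 0.37 (SE 0.10). In HY the order was the other way, with 49.7 and 62.2 CPM in MF and 49.4 and 43.2 CPM in HF.

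**Figure D3:**
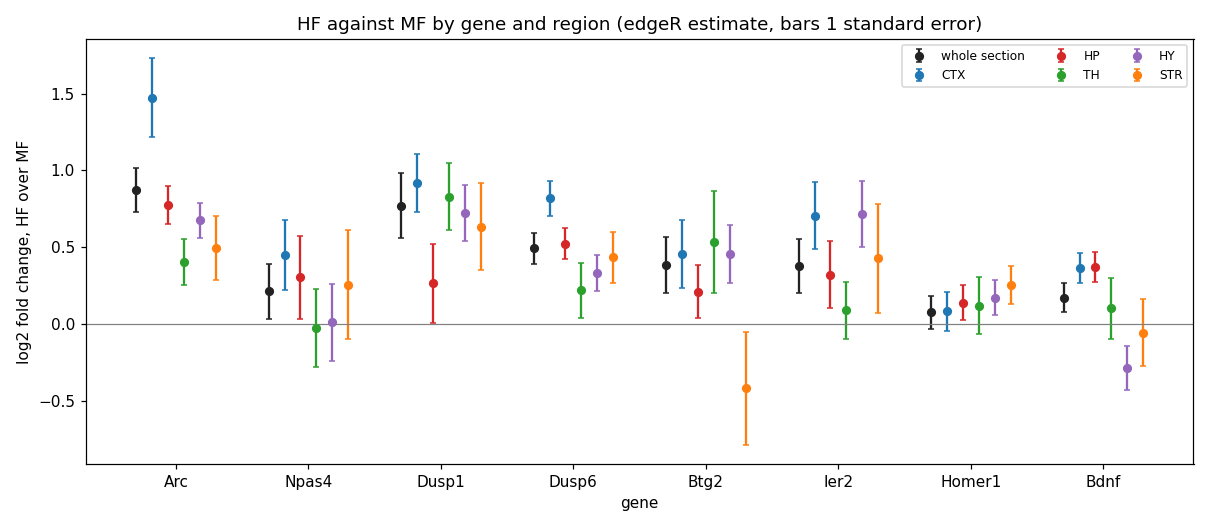
Log2 fold change of HF over MF (vertical axis) for each gene (horizontal axis) over the whole section and in 5 regions, as points with bars of 1 standard error from edgeR, 2 sections per group. The highest point is Arc in CTX at 1.48, and Homer1 lies between 0.07 and 0.26. Bdnf in HY and STR, Btg2 in STR and Npas4 in TH lie below 0.

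Whether the HF against MF difference itself varied between regions was fitted over CTX, HP, TH, HY and STR with section as a block. This term rests on the values by which the genes were selected, so its counts are a description and support nothing. The edgeR term called 0.158% of 13925 genes and no member, while 4 of the 8 members had an unadjusted p under 0.05. For Arc, the highest and lowest log2 fold changes among these regions lay 1.03 apart with all sections. That span moved with single sections. Leaving out HF replicate 1 gave 0.65, HF replicate 2 1.36, MF replicate 1 1.18 and MF replicate 2 0.92. Such fits leave 1 section in a group, so no calls are drawn from them here.

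The other genes of these pathways were counted in the same fits. Of 42 other activity-induced genes tested in CTX, 1 was called, Per1, a clock and immediate early gene, at 54.5 and 51.0 CPM in MF and 82.1 and 80.3 CPM in HF (log2 fold change 0.63, SE 0.09, adjusted p = 0.010 by edgeR). The median log2 fold change of that list was 0.09 and that of all 13181 genes tested was 0.00. That of the 8 members was 0.58, but they were selected with these values known, so the gap is no test. None of the list was called in the other regions, nor over the whole section, where Trib1 and Arl4d had the largest values, 0.60 (SE 0.13) and 0.57 (SE 0.15). Of 19 genes of the ERK pathway and its feedback none was called in any comparison. Their median in CTX was 0.09, and Dusp5, a nuclear ERK phosphatase, and Spry4, a feedback inhibitor, had 0.72 (SE 0.18) and 0.60 (SE 0.16) there. Dusp5 belongs to both lists. None of the 10 Homer and group 1 metabotropic receptor partners was called, with a CTX median of 0.01 and Dlgap1 highest at 0.17 (SE 0.08), nor any of the 13 genes of BDNF and TrkB signalling, with a CTX median of 0.07 and Ntf3 highest at 0.46 (SE 0.33).

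Markers of other cells also differed between the groups. Over the whole section the summed level of 5 choroid plexus genes was 2291 to 2438 CPM in MF and 3414 to 3782 CPM in HF with none called, most of it Ttr (log2 fold change 0.60, SE 0.08), while in CTX the sums overlapped at 528 to 663 and 587 to 700.5 CPM. The summed level of 6 oligodendrocyte genes in HP was 13778 to 14287 CPM in MF and 9445 to 9983 CPM in HF, and Mbp, Mobp and Cnp were called lower there. In CTX the same sum was 11333 to 11461 CPM in MF and 8465 to 9820 CPM in HF, with none called. The sum of 6 astrocyte genes in CTX was 978 to 1006 CPM in MF and 855 to 874 CPM in HF. The sum of 5 excitatory neuron markers in CTX was 4286 to 4440 CPM in MF and 4491 to 4703 CPM in HF, and in HP 4244 to 4440 against 4643 to 4916 CPM. Heat-shock and handling genes, 6 in the sum, were at 1054 to 1101 CPM over the MF sections and 927 to 1017 CPM over the HF sections with none called, and the 4 blood genes overlapped at 1284 to 2266 and 1404 to 2203 CPM. No gene of these lists was at 0 in any of these areas in all sections. The part of these shifts, of the unequal depth and of the mix of clusters within regions in the member values was not tested.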

How the data were processed

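The authors aligned probe reads to mm10 with Space Ranger and deposited raw UMI counts of 19465 features per spot, without normalization, with spot positions and, per the file headers, a score of spatial autocorrelation (Moran's I) per feature. Seurat is named in the submitters' notes for later steps not used here. The study's minimum of 500 UMIs and 250 genes per spot was applied. Spots were clustered on 2000 variable genes scaled within section, with 30 components, 20 neighbours and Leiden resolution 1 (scikit-learn 1.9.0, leidenalg 0.10.2). Names were given by the class best represented among a cluster's 50 leading genes, and 3 clusters stayed unnamed for a tie or for fewer than 3 markers. The study's Harmony step and histology were not used.

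Counts were summed per area and section, since spots are not replicates, and tested with edgeR 4.0.16 (R 4.3.3), TMM and filterByExpr. Calls needed a Benjamini-Hochberg adjusted p-value under 0.05 over all genes of a fit, within each pair of areas, and at least 1.2-fold. The region by diet term had the p-value rule alone. With 2 sections per group an exact test cannot go below p = 0.333. Section totals of 34983708 to 90098381 UMIs set the precision, which is lowest in subregions. Gene positions are from GENCODE vM21, GRCm38. Alternatives were DESeq2 1.42.0, library size alone, no filter, blocks by replicate number, spots thinned to 5000 UMIs, resolution 0.5 and each section left out. Thinning dropped the spots with fewer UMIs. Simulated counts were run through the main HF against MF fits, DESeq2 in HP, CTX against HP and region by diet. The fits of cortical layers, hippocampal subregions and the other alternatives were not checked in this way. The members and lists were chosen with earlier results of these data known. Named genes were all members, for each the 2 genes most alike over areas, and of the lists the called genes or else the 2 with the largest change. Single results for some marker genes are not reported here.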

Additional observations from a re-analysis of the deposited data

Results flagged for a closer look

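Among CTX, HP, TH, HY and STR, Bdnf was the member whose groups stood apart in opposite directions. In HY both HF sections lay below both MF sections, at 49.4 and 43.2 CPM against 49.7 and 62.2 CPM, with a log2 fold change of -0.29 (SE 0.14), so the nearest sections were almost level. In CTX and HP both HF sections lay above both MF sections. Of all tested genes, 16.6% had both HF sections below both MF sections in HY. Both HF sections were above for 16.1% in CTX and 17.7% in HP. HY joined several clusters in unequal mix. The HY cluster with Dlk1 as its first leading gene had 22 and 44 spots in MF and 163 and 120 in HF. That with Gpx3 first had 134 and 137 spots in MF and 91 and 45 in HF. The part of this mix in the HY value of Bdnf was not tested. The edgeR term for region by diet did not call Bdnf with all 4 sections, and since it rests on the values by which the genes were selected it bears no weight in either direction.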

How the results depend on the processing

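Over the whole section 0 genes and 0 members were called, with DESeq2 23 and 2, without the filter on low counts 5 genes, and without 1 section 0 to 1166 genes and 0 to 6 members. In CTX 22 genes and 2 members were called. DESeq2 gave 1 member, no filter 129 genes and 5 members, thinned spots 9 genes and 1 member, and leaving out a section 1 to 847 genes and 0 to 8 members. In HP 28 genes and 1 member were called, with no filter 160 and 3, with resolution 0.5 2 members, and without a section 11 to 670 genes and 1 to 3 members. In TH 0 genes were called, with DESeq2 5, with no filter 100 genes and 1 member, with thinned spots 1 gene, and without a section 0 to 1244 genes and 0 to 6 members. In HY 0 genes were called, with DESeq2 8, with no filter 1, and without a section 0 to 808 genes and 0 to 2 members. In STR 6 genes were called, with DESeq2 3, with no filter 30, and without a section 12 to 205 genes and 0 to 1 members. Region by diet called 22 genes, 6 with thinned spots, and without a section 0 to 448 genes and 0 to 3 members. Member calls between regions were 89, with thinned spots 71, and without a section 77 to 85. Between layers they were 16 to 18 and between hippocampal subregions 29 to 30 without a section, the only alternative run there. A group left with 1 section was assumed to vary like the other.

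Same-numbered sections did not deviate together (r between -0.18 and 0.03 over 6 comparisons), so the numbers are not taken as pairs. With the replicate number as a block, CTX had 95 genes and 5 members called, TH 47 genes and 1 member, and HY 1 gene. Crossed pairing was added after seeing the data. It gave 11 genes and 1 member over the whole section and 15 genes and 1 member in CTX. In HP it gave 123 genes and 2 members, in TH 152 genes and 1 member and in STR 22 genes. The cause of these differences was not tested.

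Of 325 member log2 fold changes under settings that kept all sections, 317 moved by less than the spread between replicates and 5 changed sign. Of 192 with a section left out, 23 moved further and 18 changed sign. None that changed sign was called with all sections. Every called difference between areas kept its direction in all settings run. Low depth limits Npas4, Ier2 and Btg2 in the subregions.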

Other observations

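Clusters that matched no region by enough markers also held the members. In the area led by Ddn and Slc1a2, genes of neuronal processes and astrocytes, Arc was at 30.2 and 37.8 CPM in the MF sections and at 109 and 99.3 CPM in the HF sections. In the area led by Ccn3 and Lmo3 it was at 25.2 and 20.5 CPM in MF and at 63.4 and 51.2 CPM in HF. In the area led by Six3 and Pvalb, Arc was at 103 and 150.1 CPM in MF and 213 and 149 CPM in HF, so the groups overlapped there. Among these areas Bdnf was highest in that led by Ccn3 and Lmo3, at 70.0, 70.7, 77.8 and 84.3 CPM, and lowest in that led by Six3 and Pvalb, at 24.0, 10.5, 27.6 and 18.9 CPM. These areas entered no test.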
